A study of Mus musculus with 4 samples.

Results

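The carboxylesterases are a family of liver enzymes that split esters, and 10 of their genes were chosen by name for a description across saline-treated and plant extract-treated mice. The 10 genes are Ces1c, Ces1d, Ces1e, Ces1f, Ces1g, Ces2a, Ces2c, Ces2e, Ces3a and Ces3b, and all 10 were found among the 25239 genes of the count tables. The study sequenced liver RNA of C57BL/6 mice aged 6 to 8 weeks, with 2 libraries labelled control and 2 labelled as a pyrrolizidine alkaloid group. Control mice received saline. The other mice received Gynura segetum extract into the stomach for 3 weeks at 30 g/kg per day, from a stock of 2 g/mL. The extract is a plant mixture, so no single compound was given. The labels name no sex and do not say that the libraries came from separate mice, so the p-values rest on the spread among these samples alone, and that spread may be technical.

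Carboxylesterases are serine hydrolases of the endoplasmic reticulum, and the liver is among the tissues richest in them. They cleave drugs and toxins that carry an ester bond, and several of them also release fatty acids from stored triglyceride. Pyrrolizidine alkaloids are esters that become reactive pyrroles through cytochrome P450 enzymes of the liver, while hydrolysis by carboxylesterases removes the acid part; in guinea pig liver this hydrolysis is a known route of detoxification. In human tissue the CES1 enzyme prefers substrates with a large acid part and the CES2 enzyme those with a large alcohol part. Mice carry several Ces1, Ces2 and Ces3 genes in place of the few human ones.

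After the extract the carboxylesterase genes went in both directions. Ces2e rose 12.8-fold, Ces3b fell 5.43-fold, Ces3a 2.24-fold and Ces1e 2.12-fold, and the other 6 genes did not pass the test. In whole liver, fewer cells of a type and less RNA per cell cannot be told apart. Levels are given as CPM, the count of a gene per 1e6 gene counts, scaled with edgeR's TMM factors, and a gene is called at an adjusted p under 0.05 in edgeR's quasi-likelihood test over 13963 genes. All 10 genes passed the filter on low counts. So 4 of 10 genes were called, where 8.54% of all genes tested were. By direction, 1 of 10 was higher (4.91% of all genes tested) and 3 of 10 were lower (3.63%). With either control left out more of the 10 were called higher, and with either extract library left out fewer were called lower. Over all genes tested, calls likewise grew in number without a control and shrank without an extract library. Counts from such fits below include that shift. For 9 of the 10 genes the groups lay apart, as for 54.4% of all genes tested: 4 had both extract libraries above both controls (27.6% of all) and 5 below (26.7%). The median log2 fold change of the 10 genes was -0.30, and that of all genes tested was -0.01.

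**Figure D1:**
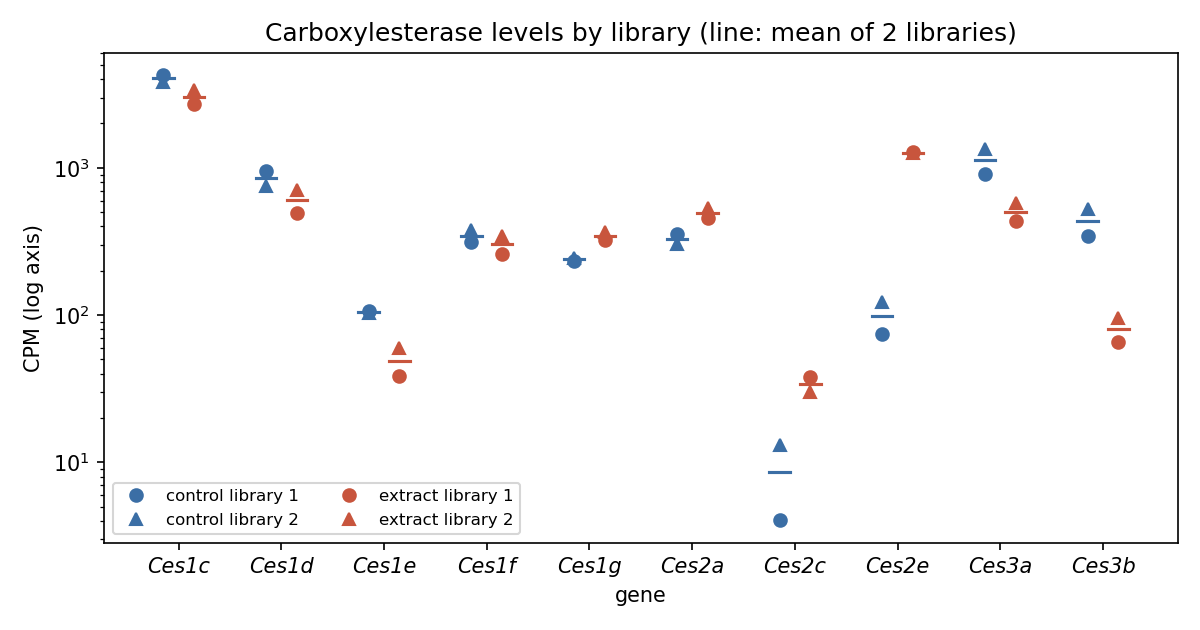
CPM (log axis) of each of the 10 carboxylesterase genes in the 2 control libraries (blue) and the 2 extract libraries (red), with circles for library 1, triangles for library 2 and a line at the mean of each group. Ces2e lies near 100 CPM in control and near 1265 CPM in extract libraries, while Ces3b goes the other way and Ces1f overlaps between the groups.

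The family was abundant in every library. Of all reads assigned to genes, the 10 genes took 0.728% and 0.705% in control and 0.658% and 0.764% in extract libraries. Their summed level was 7541 and 7642 CPM in control and 6105 and 7332 CPM in extract libraries, so extract library 1 stood apart from the other 3 and extract library 2 lay close to the controls. This sum was not tested. The 10 other Ces genes of the tables added little, since the 10 chosen genes held 97.8% to 98.3% of all Ces reads in each library.

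Per kilobase of exon the order of the genes changed. In control libraries Ces1c led at a mean of 1743 CPM per kilobase, followed by Ces3a at 428.9, Ces1d at 358.9, Ces3b at 170.4, Ces2a at 139.7, Ces1f at 105.5, Ces1g at 100.5, Ces1e at 47.6, Ces2e at 36.6 and Ces2c at 3.75 CPM per kilobase. The control libraries of Ces3a and Ces1d overlapped, as did those of Ces3b and Ces2a and those of Ces1f and Ces1g, so these neighbours did not differ beyond their spread. In extract libraries Ces1c still led at 1310 CPM per kilobase, and Ces2e came next at 468.9, up from place 9 to place 2. Ces1d followed at 253.9, Ces2a at 209.4, Ces3a at 191.7, Ces1g at 144.6, Ces1f at 92.1, Ces3b at 31.4, Ces1e at 22.5 and Ces2c at 14.8 CPM per kilobase. In extract libraries the ranges of Ces1d and Ces2a overlapped, as did those of Ces2a and Ces3a and those of Ces3b and Ces1e. Within each of these pairs, both extract libraries gave the same order.

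**Figure D2:**
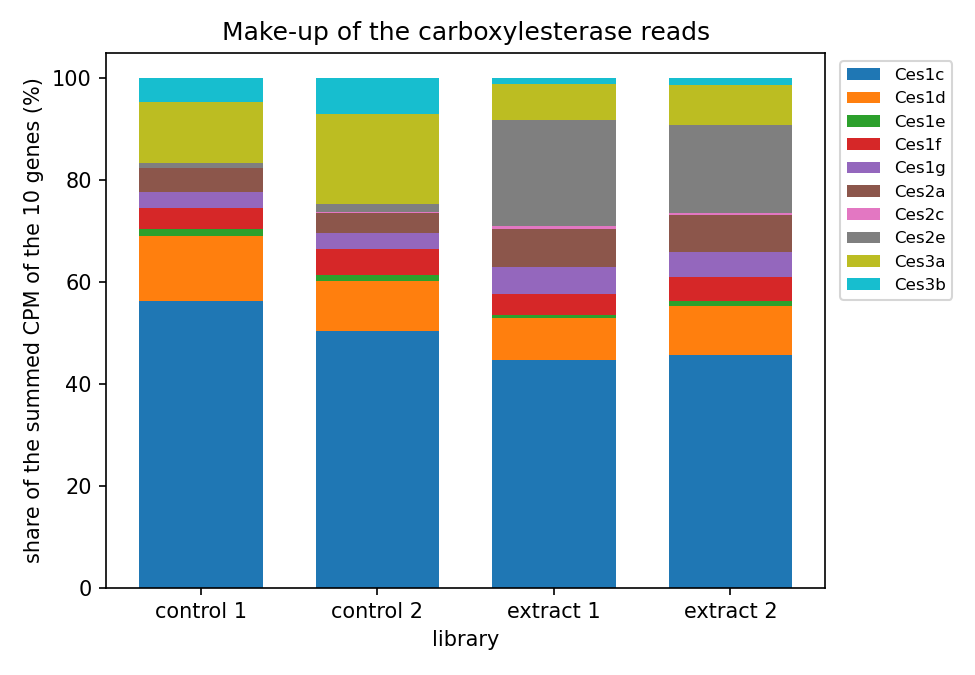
Share (%) of each gene in the summed CPM of the 10 carboxylesterase genes, 1 bar per library. Ces2e grows from 0.993% and 1.60% in the control libraries to 20.8% and 17.2% in the extract libraries, while Ces3a and Ces3b shrink.

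Within that sum the make-up changed, as the plot of shares per library shows. Ces1c took 56.4% and 50.4% of the summed level in control and 44.8% and 45.7% in extract libraries. The 3 Ces2 genes among the 10 went from 5.76% and 5.74% to 28.9% and 24.9% of the reads of the 10 genes. Ces3a and Ces3b together went from 16.6% and 24.6% to 8.15% and 9.15%. For each Ces3b read, controls held 0.217 and 0.232 Ces2e reads, while extract libraries held 19.5 and 13.1.

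Ces2e was the carboxylesterase with the clearest change. Control libraries held 3594 and 3637 of its reads and extract libraries 54834 and 60047, which makes 74.9 and 122.4 against 1271 and 1260 CPM. Both extract libraries lay far above both controls and close to each other, while the controls differed from each other. The log2 fold change was 3.68 (SE 0.26, 95% interval 3.05 to 4.32, edgeR adjusted p = 0.000932). It ran from 3.37 without control replicate 1 to 4.08 without control replicate 2 and passed the threshold in all 15 alternatives. Ces2e is a Ces2 enzyme of mouse liver and intestine. The gene lies on the plus strand of chromosome 8, at chr8:104926260-104934672 (GRCm38). Only 0.33% of its stretches of 75 bases occur in a transcript of another gene, so few of its reads could belong elsewhere at that read length; the read length itself is not stated.

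The other Ces2 genes lay higher in both extract libraries too, without passing the threshold. Ces2a, a drug-hydrolysing enzyme, lay at 355.7 and 303.2 CPM in control and 453.1 and 534.7 CPM in extract libraries (log2 change 0.58, SE 0.16, edgeR adjusted p = 0.0803). Ces2c, which hydrolyses acylcarnitines and glycerides, lay at 4.04 and 13.2 CPM in control and 38.0 and 29.9 CPM in extract libraries. The Ces2c controls were over 3-fold apart, and its log2 fold change of 2.00 (SE 0.60, 95% interval 0.35 to 3.64, edgeR adjusted p = 0.151) came with the widest interval of the 10 genes. It was 1.36 without control replicate 1 and 3.07 without control replicate 2, past the threshold in both cases. DESeq2 called Ces2a and Ces2c higher, with adjusted p of 0.0150 and 0.000194. Ces2c shares 22.1% of its stretches of 75 bases with other genes, mostly with the pseudogene Ces2d-ps, so its count is less certain than that of Ces2e.

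Of the Ces2 genes outside the 10, Ces2g was the only one above 2 CPM. It lay at 49.96 and 54.3 CPM in control and 74.6 and 78.1 CPM in extract libraries (log2 change 0.55, SE 0.13, edgeR adjusted p = 0.0535). It passed with DESeq2 (adjusted p = 0.0150), without the filter on low counts, with total counts and with either control left out. Ces2b had 1 and 7 counts in control and 39 and 65 in extract libraries, a ratio of 11.1 with a counting interval of 5.44 to 26.4. Its log2 change of 3.28 was 2.25 without control replicate 1 and 5.598 without control replicate 2, past the threshold in both cases, as it was with DESeq2 (adjusted p = 0.0272) and without the filter (adjusted p = 0.0443). Ces2h had 2 and 1 against 10 and 12 counts, a ratio of 6.27 (1.89 to 32.7), and Ces2d-ps had 1 and 8 against 30 and 41 counts. The log2 change of Ces2d-ps, 2.55, was 1.52 without control replicate 1 and 5.06 without control replicate 2, where it passed. None of these 3 passed the threshold on all 4 libraries in the main edgeR test, and intervals of counts cover counting error only. Ces2f had 0 counts in every library. Ces2b, Ces2d-ps and Ces2h passed the filter on low counts only through the extract libraries, so a higher value was a condition of their being tested. Of the other Ces2 genes tested, Ces2a, Ces2c, Ces2e and Ces2g, each had both extract libraries above both controls. These genes are neighbours and copies of each other, and their subgroup was singled out after the values were known.

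Ces3a and Ces3b, which encode a pair of closely related liver esterases, both fell. Ces3b lay at 346 and 528.4 CPM in control and 65.2 and 95.9 CPM in extract libraries (log2 change -2.44, SE 0.28, 95% interval -3.13 to -1.76, edgeR adjusted p = 0.00661). No extract library came near a control, and Ces3b passed the threshold in all 15 alternatives, between -2.77 and -2.10. Ces3a lay at 904.2 and 1349 CPM in control and 432.2 and 574.7 CPM in extract libraries (log2 change -1.16, SE 0.24, edgeR adjusted p = 0.0355). Control library 2 was the highest of the 4 for both genes. The call of Ces3a was lost without extract replicate 1 (-0.99, adjusted p = 0.199) and without extract replicate 2 (-1.41, adjusted p = 0.0572). The ratio of Ces3a to Ces3b reads was 2.61 and 2.55 in control and 6.63 and 6.00 in extract libraries. The genes share 418 stretches of 75 bases, 15.1% of those of Ces3a and 15.4% of those of Ces3b, so part of their reads can be lost or moved between them.

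Among the Ces1 genes, Ces1e fell and the others did not pass. Ces1e encodes egasyn, which holds beta-glucuronidase in the endoplasmic reticulum of mouse liver. It lay at 105.9 and 102.6 CPM in control and 38.4 and 60.0 CPM in extract libraries (log2 change -1.08, SE 0.22, edgeR adjusted p = 0.0329). The controls were almost equal and the extract libraries both lower, but the call was lost without extract replicate 1 (-0.81, adjusted p = 0.178) and with total counts in place of TMM scaling (-0.92, adjusted p = 0.0514). Its partner Gusb, the beta-glucuronidase gene, had a log2 fold change of 0.02 (SE 0.16, edgeR adjusted p = 0.963).

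Ces1c, the secreted carboxylesterase of mouse plasma, had the highest level of the family in all 4 libraries. It lay at 4252 and 3848 CPM in control and 2733 and 3352 CPM in extract libraries (log2 change -0.41, SE 0.18, edgeR adjusted p = 0.216). Ces1d, known as triacylglycerol hydrolase and active in lipoprotein assembly, lay at 951.8 and 748.6 against 494.1 and 709.1 CPM (log2 change -0.50, SE 0.22, edgeR adjusted p = 0.235). For both genes all extract values were below all control values, but the gap between the nearest libraries was smaller than the range within the extract group. Ces1d passed the threshold only without control replicate 2 among the alternatives run (-0.66, adjusted p = 0.00362).

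Ces1f and Ces1g overlapped in control libraries per kilobase of exon, though not in CPM. Ces1f lay at 312.1 and 381.2 CPM in control and 258.4 and 346.7 CPM in extract libraries, and these ranges overlapped (log2 change -0.20, 95% interval -0.66 to 0.26, edgeR adjusted p = 0.612). Ces1g, whose loss in mice leads to fatty liver and obesity, lay at 234.7 and 245.4 CPM in control and 321.4 and 369.1 CPM in extract libraries (log2 change 0.52, SE 0.15, edgeR adjusted p = 0.0784). It was higher in both extract libraries and passed the threshold in 6 of 15 alternatives, among them DESeq2 (adjusted p = 0.0181). Of the Ces1 genes outside the 10, Ces1b lay at 118.3 and 74.9 against 60.7 and 85.4 CPM (log2 change -0.40, edgeR adjusted p = 0.438), with overlap. Ces1a stayed under 0.5 CPM in every library, and Ces1h had 0 counts in control and 6 and 3 in extract libraries and was not tested.

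**Figure D3:**
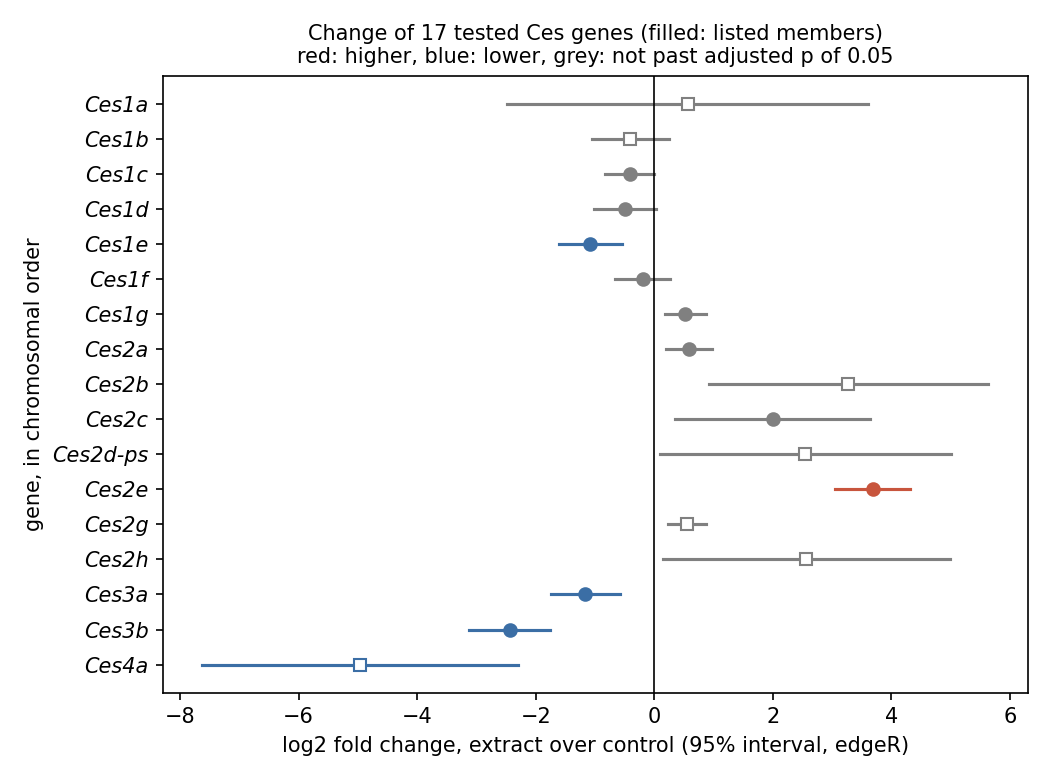
Log2 fold change, extract over control, of the 17 Ces genes with enough counts to be tested, with 95% intervals from edgeR (2 libraries per group). Filled circles are the 10 chosen genes and open squares the other family genes. Ces2e is higher (red), Ces1e, Ces3a, Ces3b and Ces4a are lower (blue), and grey genes did not pass the threshold. The direction of Ces2b, Ces2d-ps, Ces2h and Ces4a was fixed by the filter on low counts.

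All 20 Ces genes lie on chromosome 8 in 2 blocks, and the second holds both the genes with the largest rise and the largest fall among the 10. The first block holds the Ces1 genes and Ces5a, 9 genes over 515.6 kb, all on the minus strand. The second holds the Ces2 and Ces3 genes and Ces4a, 11 genes over 416.1 kb, all on the plus strand. From its left end, the 7 tested Ces2 genes had log2 fold changes of 0.58 (Ces2a), 3.28 (Ces2b), 2.00 (Ces2c), 2.55 (Ces2d-ps), 3.68 (Ces2e), 0.55 (Ces2g) and 2.57 (Ces2h). Then came Ces3a at -1.16, Ces3b at -2.44 and Ces4a at -4.96. The filter on low counts fixed the direction of Ces2b, Ces2d-ps and Ces2h, which passed it only through the extract libraries, and of Ces4a, which passed it only through the controls. Ces4a was called lower (edgeR adjusted p = 0.0429) from 20 and 55 counts in control and 1 and 2 in extract libraries, 29.2-fold lower with a counting interval of 9.62 to 145. The call of Ces4a was lost on leaving out control replicate 2 (-3.56, adjusted p = 0.0679), extract replicate 1 (adjusted p = 0.214) or extract replicate 2 (adjusted p = 0.168), and also with total counts (adjusted p = 0.0515) and with limma-voom (adjusted p = 0.120).

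**Figure D4:**
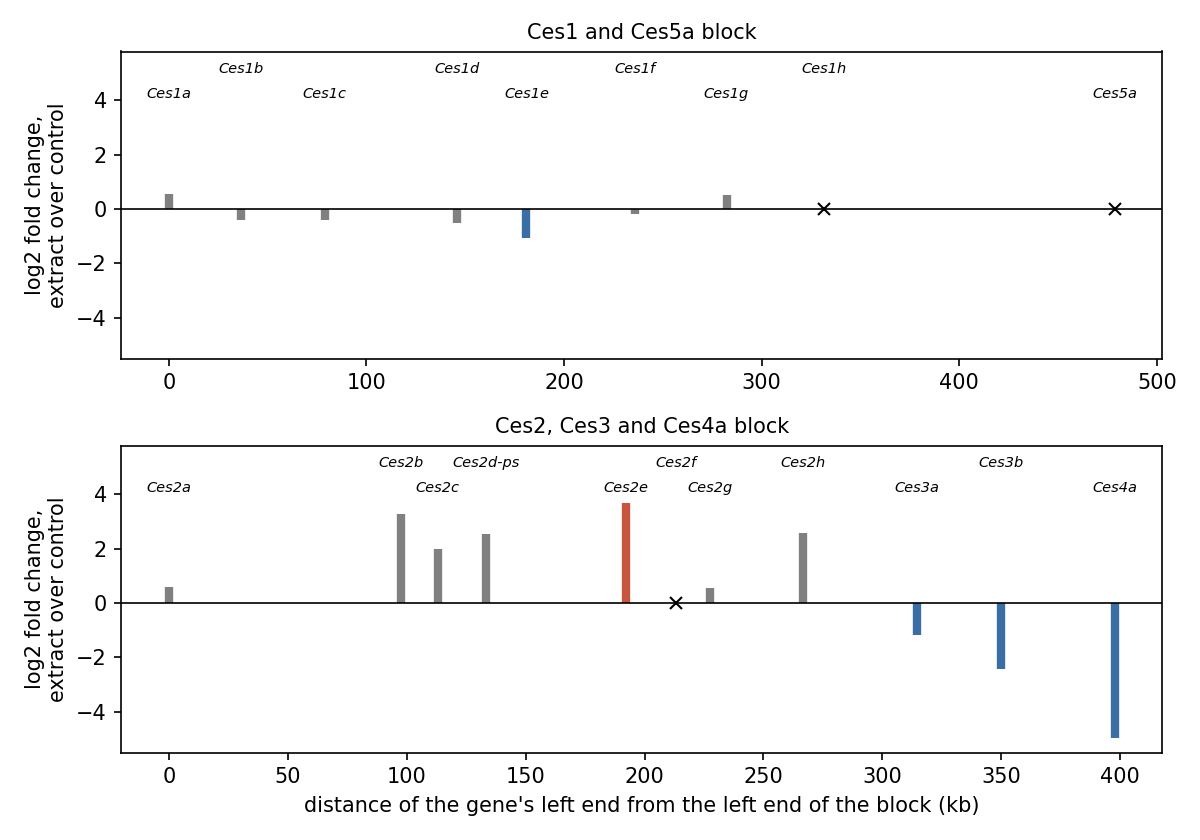
Log2 fold change (extract over control) of each Ces gene against the distance (kb) of its left end from the left end of its block, with the Ces1 and Ces5a block above and the Ces2, Ces3 and Ces4a block below. Bars are red where higher, blue where lower and grey where not past the threshold, and crosses mark genes that were not tested; Ces2a, Ces2c, Ces2e and Ces2g point up and Ces3a and Ces3b down, while the direction of Ces2b, Ces2d-ps, Ces2h and Ces4a was fixed by the filter on low counts.

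Genes outside the family but close to the blocks were read by symbol. Of 20 tested within 200 kb of the second block, 1 was higher and 1 lower, a share near the 8.54% called among all genes tested, and their log2 fold changes ran from -0.91 to 1.84. The nearest tested gene beyond Ces4a, Cbfb, a transcription factor subunit, had a log2 fold change of -0.14 (edgeR adjusted p = 0.631), and it was chosen for its place. Within 200 kb of the first block 2 other genes were tested and both were called: the protease gene Mmp2 was higher (2.104, edgeR adjusted p = 0.0141) and the lipid enzyme gene Lpcat2 lower (-2.34, adjusted p = 0.0261). They are named because they are the only such genes.

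Promoter sequences were at hand for 7 of the 10 genes and for 15 of the 20 family genes, each from 250 bases before to 50 after the start, from RefSeq on GRCm38.p6. The promoter of Ces2e is shown because it belongs to the gene that rose, at chr8:104926010-104926259 on the plus strand, and that of Ces3b, at chr8:105083505-105083754 on the plus strand, because it belongs to the gene that fell most among the 10. Only the 250 bases before the start are printed. Capitals in the Ces2e sequence mark a C/EBP-like match on the minus strand and then the run ACTTTGCCC, and capitals in the Ces3b sequence mark TATAAA followed at once by a match to the p53 decamer consensus.
Ces2e: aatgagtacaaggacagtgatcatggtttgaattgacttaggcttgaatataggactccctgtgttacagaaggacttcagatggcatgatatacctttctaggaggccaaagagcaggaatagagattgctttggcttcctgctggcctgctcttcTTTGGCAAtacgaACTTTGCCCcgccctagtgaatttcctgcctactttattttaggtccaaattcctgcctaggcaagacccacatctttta
Ces3b: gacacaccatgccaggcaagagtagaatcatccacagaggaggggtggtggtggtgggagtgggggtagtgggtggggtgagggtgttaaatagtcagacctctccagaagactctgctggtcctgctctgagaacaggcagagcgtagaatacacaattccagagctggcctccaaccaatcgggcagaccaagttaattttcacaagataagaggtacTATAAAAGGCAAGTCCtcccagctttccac

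The Ces2 promoters share a short run of bases close to the start. The letters GGGCAAAGT, read as ACTTTGCCC on the gene's own strand, occur in 4 of 6 Ces2 promoters and in 0.262% of 32851 promoters of the same length, counting both strands. The run was noticed on reading these promoters, so this share is a description. It begins 70 bases before the start in Ces2a, 80 in Ces2e, 92 in Ces2f and 117 in Ces2g. Stretches of 40 bases around it, with the run in capitals, are shown because Ces2e and Ces2f both carry it while 1 rose and the other had 0 counts.
Ces2a (chr8:104733918-104733957, plus strand): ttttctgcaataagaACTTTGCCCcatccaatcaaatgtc
Ces2e (chr8:104926165-104926204, plus strand): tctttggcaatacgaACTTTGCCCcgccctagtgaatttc
Ces2f (chr8:104947249-104947288, plus strand): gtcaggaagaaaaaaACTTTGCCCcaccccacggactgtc
Ces2g (chr8:104961586-104961625, plus strand): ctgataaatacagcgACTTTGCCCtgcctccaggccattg
The run was not in the 300 bases of Ces2c or Ces2h. In pairwise alignments of the promoters, Ces2e was 54.9% identical to Ces2a, 54.4% to Ces2c, 56.1% to Ces2g, 51.1% to Ces2f and 47.9% to Ces2h. Against the Ces1 promoters it was 46.3% (Ces1h) to 51.4% (Ces1e), so the values within Ces2 lay little above those between subgroups, or among them.

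The Ces1 promoters carry a different match. The letters TTATGTAA, the D-box bound by the clock output factors Dbp, Tef and Hlf and by Nfil3, occur in 5 of 6 Ces1 promoters, in 0 of 6 Ces2 promoters, and in 0.938% of all promoters on either strand. C/EBP factors can bind the same letters. The stretches of 40 bases are shown, with the D-box in capitals, because the genes that hold them include 3 of the 10.
Ces1a (chr8:93048367-93048406, minus strand): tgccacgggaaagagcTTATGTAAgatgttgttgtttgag
Ces1b (chr8:93080001-93080040, minus strand): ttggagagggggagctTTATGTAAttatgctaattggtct
Ces1c (chr8:93131354-93131393, minus strand): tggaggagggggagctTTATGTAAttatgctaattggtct
Ces1e (chr8:93229677-93229716, minus strand): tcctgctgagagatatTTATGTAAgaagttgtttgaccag
Ces1g (chr8:93337418-93337457, minus strand): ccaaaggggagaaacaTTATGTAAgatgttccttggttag
The promoters of Ces1b and Ces1c are copies of each other at 81.6% identity, so they are not separate cases. The other Ces1 genes are neighbours of the same family, so their matches may not be separate cases either, and the share is a description. The genes that hold the D-box differed in their values, with log2 fold changes of -0.41 in Ces1c, -1.08 in Ces1e and 0.52 in Ces1g. A match to letters in this window is not a bound site.

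Other letters were searched on both strands. The antioxidant response element core TGACNNNGC was in 0 of the 15 promoters and in 12.4% of all promoters. TTACGTAA, the HNF4A letters CAAAGTCCA and the nuclear receptor repeats known as DR3 and DR4 were each searched in a single exact spelling. They were in 0 of the 15 promoters, and in 0.119%, 0.475%, 0% and 0.0152% of all promoters. Spellings this rare would be missing from most promoters anyway, so their absence here says nothing about such sites. The C/EBP-like letters TTGCNNAA were in 5 of the 15 and 10.8% of all, and TATAAA in 3 of the 15 and 13.6% of all. The p53 decamer consensus was in 4 of the 15 and in 8.36% of all. Its 4 genes were Ces2c and Ces2g, which lay higher after the extract without passing the threshold, and Ces3b and Ces4a, which were called lower. The direction of Ces4a was fixed by the filter on low counts. A role of p53 in these values was not tested.

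The clock genes differed strongly between the groups, and the labels give no time of collection. Of 17 clock genes tested, 10 rose, 5 fell and 2 missed the threshold, beside 8.54% called among all genes tested. Ciart, among the 10, had 5 and 3 counts in control and 262 and 212 in extract libraries. It passed the filter on low counts only through the extract libraries, which fixed its direction. Dbp lay at 1.38 and 0.269 CPM in control and 59.7 and 57.8 CPM in extract libraries (log2 change 6.04, edgeR adjusted p = 0.0123), a call lost with either extract library left out. Per2 (3.40), Per3 (4.68) and Tef (2.93) rose on the log2 scale, and Npas2 (-4.68), Arntl (-2.42) and Nfil3 (-2.15) fell. With either extract library left out, 5 clock genes were higher and 3 lower. A difference in time of day cannot be told apart from the treatment, and its part in the carboxylesterase values was not tested.

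Regulators that are known to act on carboxylesterase or other drug-metabolising genes went in both directions. Of 14 tested, 2 rose, 1 fell and 11 missed the threshold, beside 8.54% called among all genes tested. Nfe2l2 (Nrf2, the sensor of electrophiles) rose (log2 change 1.23, SE 0.18, edgeR adjusted p = 0.0118), as did the aryl hydrocarbon receptor Ahr (0.69, adjusted p = 0.0399), and the repressor Nr0b2 fell (-0.97, adjusted p = 0.0299). The call of Nfe2l2 was lost without extract replicate 2, that of Nr0b2 without extract replicate 1 and with total counts, and that of Ahr without either extract replicate. The receptors for foreign compounds Nr1i2 (PXR) and Nr1i3 (CAR), named for their role, had log2 fold changes of 0.39 (edgeR adjusted p = 0.163) and -0.05 (adjusted p = 0.962). Nr1i3 controls lay at 55.4 and 125.6 CPM, on either side of both extract libraries, and without control replicate 2 it was called higher (0.66, adjusted p = 0.000728), while without control replicate 1 it was called lower (-0.53, adjusted p = 0.0070). With 1 library left out, 0 (extract replicate 2) to 5 (control replicate 2) regulators were higher and 0 (extract replicate 1) to 3 (each control) were lower.

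Other liver enzymes that split esters and thioesters gave few calls. Of 25 tested, 3 rose, 0 fell and 22 missed the threshold, beside 8.54% called among all genes tested. Their median log2 fold change was -0.11. Esd (esterase D) rose from 214.3 and 218.2 to 369.6 and 379.1 CPM (log2 change 0.79, SE 0.13, edgeR adjusted p = 0.0163). The lipases Pnpla3 (2.28, adjusted p = 0.0211) and Lipe (0.79, adjusted p = 0.0379) also rose, and the thioesterase Acot12 had a log2 fold change of -0.63 (edgeR adjusted p = 0.0580). On dropping either control, more genes of the list were called and some of them were lower. On dropping either extract library, fewer were called, and the calls of Esd, Pnpla3 and Lipe were all lost without extract replicate 2. Calls over all genes tested shifted in the same way. The alternatives on all 4 libraries gave 3 to 5 higher and 0 to 2 lower.

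Genes of lipid droplets and lipoprotein assembly, where Ces1d and Ces1g act, were called in both directions. Of 18 tested, 2 rose, 1 fell and 15 missed the threshold, beside 8.54% called among all genes tested, with a median log2 fold change of -0.02. The acetyl-CoA acetyltransferase gene Acat2 (log2 change 1.55, edgeR adjusted p = 0.00275) and the lipase coactivator Abhd5 (1.45, adjusted p = 0.00417) rose. Acat2 is not itself a gene of lipid droplets or lipoprotein assembly and is counted here only because the list held it. The lipase inhibitor G0s2 fell (-1.60, adjusted p = 0.0356), a call lost with either extract library left out and without a filter on low counts (adjusted p = 0.0577). The droplet protein Plin2 had a log2 fold change of -0.95 (edgeR adjusted p = 0.102) and passed with DESeq2 (adjusted p = 0.00637) and with either control left out. Without control replicate 1 the list had 3 higher and 4 lower, and without control replicate 2 it had 4 and 3. Of 8 endoplasmic reticulum genes, Gusb among them, 0 passed the threshold, while 4 had an unadjusted p under 0.05 in edgeR and 5 were lower without control replicate 1.

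The 3 genes with values most like those of Ces2e were Tsku (a secreted signalling modulator), Cdkn1a (a cell cycle inhibitor) and Ddit4l (a regulator of mTOR signalling). The measure was the distance between log2(CPM + 1) values centred on each gene over the 4 libraries, and it was 0.346, 0.441 and 0.760. Only genes with a mean of at least 20 CPM over the 4 libraries were compared, and predicted genes and pseudogenes were left out. Those nearest to Ces3b were Zbtb16 (a transcription factor), Dnase1l3 (a secreted nuclease) and Fcna (ficolin A), at 0.321, 0.328 and 0.416. Ddit4l lay at 1.52 and 1.48 CPM in control, so it met the limit of 20 CPM only through the extract libraries. Zbtb16, Dnase1l3 and Fcna lay below 20 CPM in both extract libraries and met it only through the controls. For these genes the limit fixed part of the likeness.

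Markers of other cell types were read beside these values. Among all genes tested, 3.63% were called lower and 4.91% higher. Hepatocyte markers, 6 of 17 lower and 0 higher with a median log2 fold change of -0.54, summed to 192900 and 202300 CPM in control and 126600 and 134400 CPM in extract libraries, and none was at 0. With 1 library left out, 1 (extract replicate 1) to 10 (control replicate 1) of the 17 were lower. Kupffer cell markers, 11 of 12 lower, summed to 843.6 and 661.2 against 84.7 and 86.2 CPM. Sinusoidal endothelial markers, 8 of 12 lower (4 without extract replicate 1), summed to 470.8 and 492.9 against 295.5 and 287.2 CPM. Alb made up most of the hepatocyte sums, at 105700 and 109100 CPM in control and 69250 and 74590 CPM in extract libraries (edgeR adjusted p = 0.0982). The falls of Ces1e, Ces3a and Ces3b went with the lower hepatocyte sums, while Ces2e rose. The part of hepatocyte content in these values was not tested. Cholangiocyte markers (1 of 6 tested lower) summed to 61.1 and 65.5 against 58.9 and 60.9 CPM. Stellate cell markers (4 of 12 lower) summed to 805.4 and 583.9 against 415.3 and 414.4 CPM. Monocyte and neutrophil markers (2 of 9 lower) summed to 146 and 113.7 against 82.0 and 58.8 CPM. The stellate, monocyte and neutrophil counts shifted with 1 library left out. The 2 lower of the 9 were Lyz2 and Cd68. Lyz2 made up most of the monocyte and neutrophil sums, at 106.9 and 87.9 CPM in control and 54.6 and 35.7 CPM in extract libraries. The other 7 did not pass the threshold, and their log2 fold changes went in both directions.

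Intestine also expresses Ces2 genes, so enterocyte markers were read too. Sis and Alpi, defining enterocyte genes, had 0 counts in all 4 libraries, and 0 of 3 tested markers passed the threshold (3 had an unadjusted p above 0.05). The 8 markers summed to 148.8 and 335 CPM in control and 246.5 and 184 CPM in extract libraries, so the groups overlapped. Most of this came from the apolipoprotein gene Apoa4, which mouse liver also expresses, and the remainder mainly from Fabp2, at 20.1 and 43.7 against 15.6 and 23.0 CPM. Of 8 pancreatic acinar markers, 4 had 0 counts in all libraries, Cel, an ester-splitting enzyme of pancreatic juice, among them, and the sums were 9.05, 29.8, 11.4 and 14.4 CPM.

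**Figure D5:**
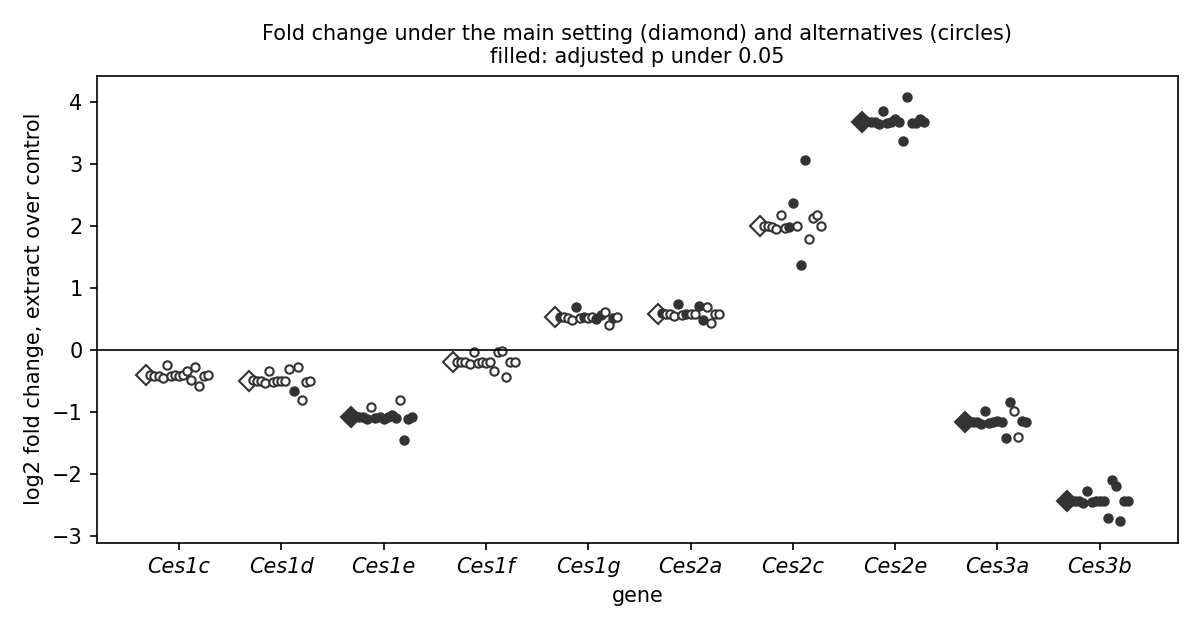
Log2 fold change (extract over control) of each of the 10 genes in the main setting (diamond) and in 15 alternatives (circles), filled where the adjusted p was under 0.05. Ces2e and Ces3b are filled throughout, Ces1c and Ces1f nowhere, and the points of Ces2c spread from 1.36 to 3.07.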

How the data were processed

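Liver RNA was extracted with Trizol and sequenced, per the labels' protocols. CASAVA 1.8, HISAT2 2.1.0, HTSeq and the mm10 build (GRCm38) are named per the submitters' processing notes; for the annotation, read length and strand setting nothing is given in these sources. Each deposited table lists raw counts by gene symbol as the authors made them. The 5 rows that name no gene took 16.5% to 22.0% of records and stayed out of all totals. Records with several alignments made up 6.70% and 9.03% in control and 5.18% and 5.33% in extract libraries. Gene totals were 49711750 and 32215268 in control and 40013188 and 45754235 in extract libraries, so that 1 read is worth 0.0208 to 0.0337 CPM and a count of 0 allows up to 3 counts, for counting error only. Libraries of a group differed by more than sampling noise (chi-square over degrees of freedom 118.1 for control and 29.1 for extract).

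The test was that of edgeR 4.0.16 under R 4.3.3 (filterByExpr, TMM, robust quasi-likelihood F test, 2-sided, Benjamini-Hochberg over 13963 genes). DESeq2 1.42.0 and limma-voom (limma 3.58.1), other scalings and filters, a replicate block and leaving out each library were the alternatives. The genes and lists were chosen with earlier results of these data known. All Ces genes are named, and up to 4 genes with the smallest p-values and at least 1 CPM per list, besides Dbp. Tef, Hlf, Nfil3, Gusb, Nr1i2, Nr1i3, Cbfb, Mmp2 and Lpcat2 were named for their role or place, and Alb and Ciart for their levels. A gene of the regulator list that the rule names is not reported here. Positions, exon lengths and shared stretches come from GENCODE vM21. Ratios of low counts carry an exact 95% binomial interval.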

Additional observations from a re-analysis of the deposited data

How the results depend on the processing

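None of the 10 carboxylesterase genes changed direction in any of the 15 alternatives. Ces2e was called higher and Ces3b lower in all of them, and Ces1c and Ces1f in none. The count of carboxylesterases higher, 1 in the main setting, was 3 without a filter on low counts and 3 with total counts as scaling, 4 with DESeq2, 2 with limma-voom and 2 with the replicate block. Leaving out each library gave 1 to 4 higher and 1 to 4 lower, where the main setting had 3 lower. The added calls were drawn from Ces1g, Ces2a and Ces2c, and for the lower ones Ces1d; the cause was not tested. Without extract replicate 1 only Ces3b was lower. The replicate numbers name libraries and are not said to pair them; deviations of same-numbered libraries correlated at 0.220 over genes, with only 2 pairs, and the block added Ces1g among the 10; it also moved Ces2g (adjusted p = 0.0342) and Plin2 (0.0100) past the threshold and G0s2 (0.0705) out of it. With 1 library in a group, its spread was taken from the other group. Total counts moved the median of all genes to 0.16 on the log2 scale, and the higher call of Ces1g (0.69) and Ces2a (0.75) under it includes that shift. The log2 ratio of the summed level, -0.18, ran from -0.22 to -0.01 over the other scalings. Directions of weak values changed for Ces1a (-0.31 to 6.77 with 1 library left out), Gusb (-0.019 with upper-quartile scaling, -0.11 to 0.16 with 1 library left out) and Nr1i3 (0.12 with total counts, 0.056 with limma-voom, 0.049 with the replicate block, and -0.53 to 0.66 with 1 library left out). Over all genes the counts were 686 higher and 507 lower in the main setting and 1027 and 909 with DESeq2, and they ran from 233 to 1826 higher and from 134 to 1782 lower with 1 library left out. With 2 libraries a group, changes such as that of Ces1g lie at the limit of what could be called.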
